A study of Mus musculus with 12 samples.

Results

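The 7 inflammatory CC chemokine genes described here are Ccl2, Ccl3, Ccl4, Ccl5, Ccl6, Ccl7 and Ccl9, chosen by name from the 754 endogenous genes of a NanoString nCounter myeloid innate immunity panel. The panel counts colour-barcoded reporter probes bound to mRNA in cell lysate, without sequencing. It was run on CD11c+ cells from the lungs of mice to measure the response of these cells to RELMa, a secreted resistin-like protein of helminth infection that is encoded by Retnla. Every mouse was RELMa-/-, and every mouse had been infected with 500 L3 larvae of the nematode Nippostrongylus brasiliensis 10 days before the lungs were taken. Sorted cells spent the night at 37 °C in medium with 10% serum. They were then held in 1% serum, for 1 h according to the growth protocol and for 2 h according to the design text.

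The 4 groups had 3 samples each. They were cells given 500 ng/ml recombinant RELMa (rRELMa) for 4 h in run 2, cells given PBS for 4 h in run 2, cells given rRELMa in run 1 at the same dose and time, and cells given PBS in run 1. Lysate of about 5000 cells was hybridised for 18 h at 65 °C. The labels do not say how the runs differ, or whether samples of a group are separate mice or separate cultures. The p-values therefore measure only how these samples vary, and that variation may be technical. The sources used here do not give strain, sex, age or any pooling of mice. All cells came from infected mice without RELMa, and the CD11c gate takes in macrophages as well as dendritic cells.

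CC chemokines are small secreted proteins that draw leukocytes along concentration gradients through receptors on the leukocyte surface. Ccl2 and Ccl7 recruit monocytes through Ccr2. Ccl3, Ccl4 and Ccl5 draw T cells and monocytes, and Ccl3 and Ccl5 act on Ccr1. Ccl6 and Ccl9 are rodent chemokines that also act on Ccr1, and lung macrophages are a known source of several of these ligands.

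All 7 genes lie on mouse chromosome 11 among the other CC chemokine genes of that cluster. In the order of the RefSeq annotation of GRCm38.p6 Ccl2 and Ccl7 are neighbours, and Ccl9, Ccl6, Ccl3 and Ccl4 follow each other. Sequence before the annotated start was at hand for 3 of the 7 genes. All 3 windows are shown, and any part of them in the measured differences was not tested. Each is the 250 bases before the start, 5′ to 3′ on the minus strand, from RefSeq on GRCm38.p6, at chr11:83649379-83649628 for Ccl3, chr11:83593088-83593337 for Ccl6 and chr11:83578637-83578886 for Ccl9. Capitals mark in Ccl6 the longest run of bases shared with Ccl9, and in Ccl9 first a motif match and then that shared run.
Ccl3: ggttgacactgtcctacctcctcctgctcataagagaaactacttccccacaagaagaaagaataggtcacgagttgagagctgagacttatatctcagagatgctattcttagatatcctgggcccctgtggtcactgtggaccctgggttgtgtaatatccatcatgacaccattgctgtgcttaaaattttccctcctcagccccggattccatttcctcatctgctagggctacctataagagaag
Ccl6: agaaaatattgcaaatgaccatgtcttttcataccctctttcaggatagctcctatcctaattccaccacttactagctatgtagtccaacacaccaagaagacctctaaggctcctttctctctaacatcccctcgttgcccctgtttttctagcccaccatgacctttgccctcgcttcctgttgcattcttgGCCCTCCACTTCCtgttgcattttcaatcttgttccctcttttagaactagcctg
Ccl9: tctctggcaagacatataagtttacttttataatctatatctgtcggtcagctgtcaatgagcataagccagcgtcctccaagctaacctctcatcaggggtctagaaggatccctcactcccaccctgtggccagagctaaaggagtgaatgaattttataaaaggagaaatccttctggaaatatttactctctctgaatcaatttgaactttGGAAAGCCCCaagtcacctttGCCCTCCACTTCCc
The run shared by Ccl6 and Ccl9 is 13 bases long, while the longest run that Ccl3 shares with either of them is 8 bases. How often other pairs of windows share a run of this length was not measured. The windows were searched on both strands for 3 motifs. A pair of forms of the NF-kB site read GGG, any 2 bases and TTTCC, or GGGA, any 2 bases and TTCC, and these can overlap each other. A form of the interferon response element reads GAAA, any 2 bases and GAAA. The only match was the first NF-kB form on the reverse strand in Ccl9, read as GGAAAGCCCC in the printed strand. Of 32851 RefSeq windows of the same 250 bases before a start, 1.41% hold the first NF-kB form, 1.21% the second and 2.98% the interferon response form. A letter match is a description of the window only.

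A sample of run 2 had 411169 to 765719 endogenous counts in total, and one of run 1 had 179719 to 257415. The 8 negative control probes, which have no target, set a limit in each sample at their mean plus 2 SD. That limit was 16.1 to 23.9 counts in run 2 and 19.7 to 31.1 in run 1. The CD11c gene Itgax was above it in all 12 samples, with 1071 to 1216 raw counts in run 2 rRELMa, 707 to 1181 in run 2 PBS, 161 to 268 in run 1 rRELMa and 180 to 256 in run 1 PBS. Retnla, the gene missing in these mice, was at or below the limit in all 12 samples, at 5 to 18 counts.

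Ccl7 and Ccl4 stayed near the negative controls, while Ccl5, Ccl6 and Ccl9 were clearly above them in all 12 samples. Ccl7, a monocyte attractant, had 10, 8 and 10 raw counts in run 2 rRELMa and 9, 8 and 7 in run 2 PBS, against limits of 16.1 to 23.9. It had 9, 13 and 6 raw counts in run 1 rRELMa and 13, 15 and 23 in run 1 PBS. Ccl7 was thus at or below the limit in all 12 samples, as were 272 of the 754 genes (36.1%).

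Ccl4, a macrophage inflammatory protein and close relative of Ccl3, had 15, 21 and 19 raw counts in run 2 rRELMa and 20, 24 and 8 in run 2 PBS. In run 1 it had 14, 24 and 8 with rRELMa and 18, 18 and 23 with PBS. It was at or below the limit in 11 of 12 samples, the exception being the run 2 PBS sample with 24 counts against a limit of 21.3. With the limit at the mean plus 3 SD this sample also fell below it.

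Ccl2, the main Ccr2 ligand, had 37, 31 and 23 raw counts in run 2 rRELMa and 21, 27 and 8 in run 2 PBS. In run 1 it had 27, 55 and 40 with rRELMa and 47, 47 and 56 with PBS. It was at or below the limit in 2 samples, both of run 2 PBS, and its other run 2 samples had at most 37 counts. Ccl3, a ligand of Ccr1, had 179, 180 and 141 raw counts in run 2 rRELMa and 120, 158 and 83 in run 2 PBS. In run 1 it had 40, 40 and 27 with rRELMa and 24, 25 and 30 with PBS. It was at or below the limit in 2 samples, both of run 1 PBS, so the low end of Ccl3 lay in run 1 and the low end of Ccl2 in run 2.

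Ccl5, a ligand of Ccr1 that draws T cells and monocytes, had 480, 477 and 427 raw counts in run 2 rRELMa and 409, 494 and 238 in run 2 PBS. In run 1 it had 918, 1027 and 816 with rRELMa and 950, 1121 and 1144 with PBS. Its run 2 counts were the lower ones although total counts were higher in run 2. Ccl6 had 337, 243 and 265 raw counts in run 2 rRELMa and 210, 270 and 125 in run 2 PBS, and 221, 303 and 204 in run 1 rRELMa and 204, 263 and 269 in run 1 PBS. Ccl9 had 1630, 1163 and 1390 raw counts in run 2 rRELMa and 1088, 1408 and 835 in run 2 PBS, and 755, 1126 and 803 in run 1 rRELMa and 758, 1148 and 1030 in run 1 PBS. The raw counts of Ccl6 overlapped between the runs in both treatments, before any allowance for depth. Those of Ccl9 were higher in run 2 without overlap with rRELMa, and overlapped with PBS. The scaled counts of both genes, given below, were lower in run 2.

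**Figure D1:**
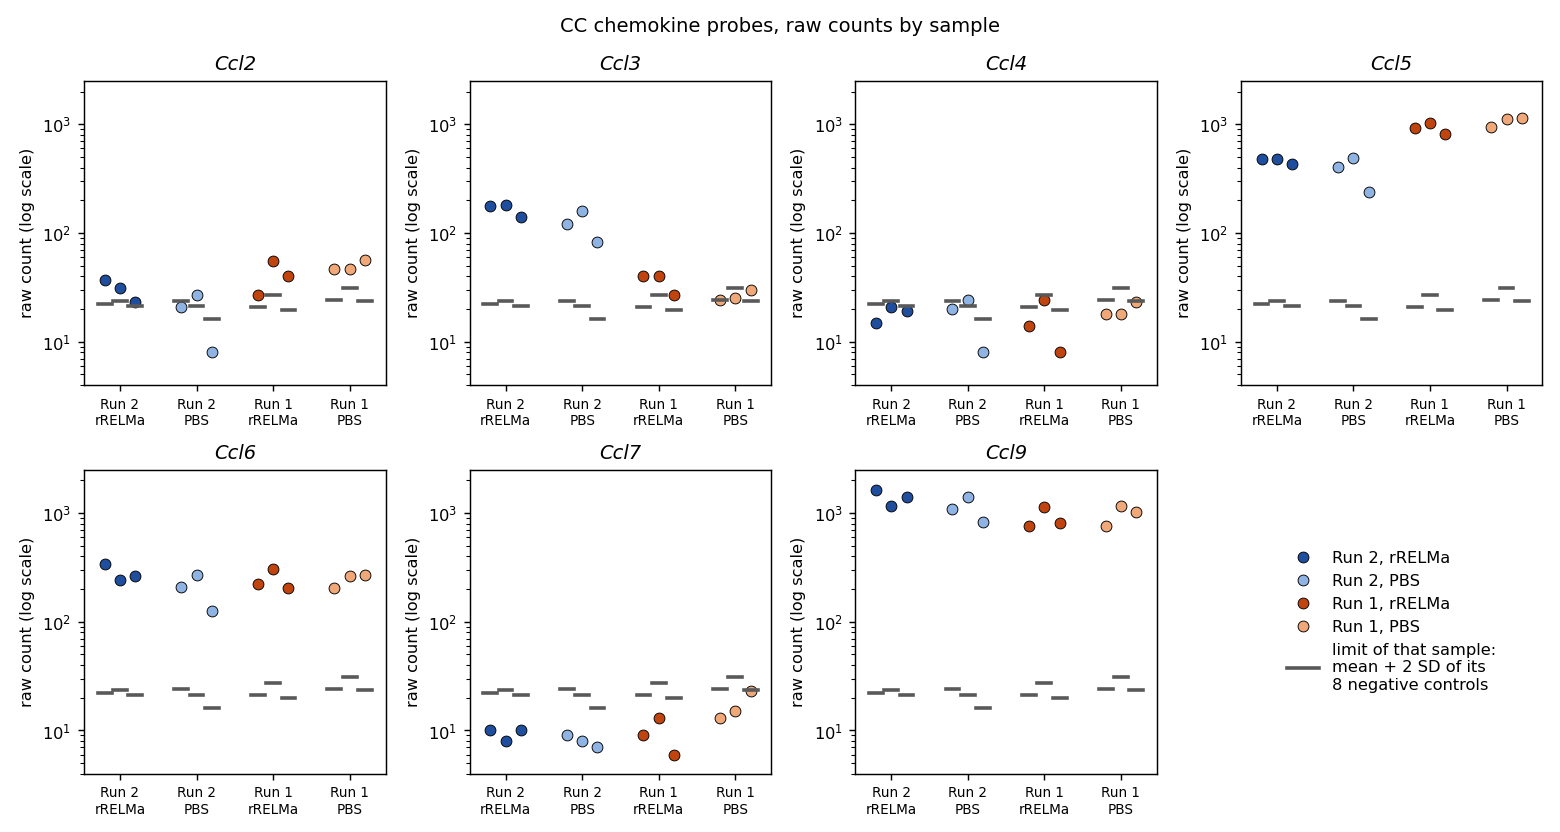
Raw counts of the 7 chemokine genes by sample (log axis), in run 2 rRELMa, run 2 PBS, run 1 rRELMa and run 1 PBS, with the limit set by the negative controls of each sample. Ccl7 lies at or below the limit in all 12 samples and Ccl4 in 11, while Ccl5, Ccl6 and Ccl9 lie far above it.

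For tests, counts were scaled between samples by TMM, which takes most genes as unchanged, and 415 genes with a mean raw count of at least 20 were tested with edgeR's quasi-likelihood test and Benjamini-Hochberg adjustment. Ccl2, Ccl3, Ccl5, Ccl6 and Ccl9 passed this minimum. Ccl4 and Ccl7 did not, as did not 319 of the 754 genes (42.3%). In bulk lysates of this kind, fewer cells of a type and less RNA per cell cannot be told apart.

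rRELMa against PBS, with the run as a block, gave no called change in any of the 5 chemokines. The largest log2 fold changes were those of Ccl3 and Ccl6, both positive. By edgeR's test 0 of the 5 were called at an adjusted p under 0.05, and 2 of 5 had an unadjusted p under 0.05. Over all 415 genes 1 was called (0.241%), Arg1, which was lower with rRELMa, and 32 had an unadjusted p under 0.05. DESeq2 and limma also called 0 of the 5.

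The TMM-scaled counts of Ccl3 in run 2 were 111, 127 and 100.4 with rRELMa, against 82.6, 102 and 92.5 with PBS. In run 1 they were 72.2, 58.0 and 55.8 with rRELMa, against 42.8, 37.3 and 42.4 with PBS. The treatments overlapped in run 2 by the lowest rRELMa and the highest PBS sample, and did not overlap in run 1. With both runs the log2 fold change of Ccl3 was 0.36 (SE 0.10, 95% interval 0.15 to 0.57 before any adjustment, edgeR adjusted p = 0.245).

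Ccl6 in run 2 had scaled counts of 209, 171 and 189 with rRELMa, against 145, 175 and 139 with PBS. In run 1 it had 399, 439 and 422 with rRELMa, against 364, 392 and 380 with PBS. The order was the same as for Ccl3, with an overlap in run 2 and none in run 1. The log2 fold change of Ccl6 was 0.22 (SE 0.07, 95% interval 0.08 to 0.36, edgeR adjusted p = 0.299).

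For the other members the intervals took in 0. The log2 fold change was 0.10 for Ccl2 (SE 0.17, -0.24 to 0.44), 0.01 for Ccl5 (SE 0.05, -0.09 to 0.12) and 0.09 for Ccl9 (SE 0.06, -0.04 to 0.22), with edgeR adjusted p-values of 0.891, 0.993 and 0.761. The median over the 5 chemokines was 0.10, beside 0.01 over all 415 genes. For Ccl5 and Ccl9 the intervals end below the log2 fold change measured for Ccl3. The interval of Ccl3 itself, 0.15 to 0.57, overlaps that of Ccl9 and not that of Ccl5. The genes were not tested against each other.

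Within run 2 the log2 fold changes of rRELMa against PBS were 0.51 for Ccl2 (SE 0.26), 0.28 for Ccl3 (SE 0.12), 0.10 for Ccl5 (SE 0.08), 0.30 for Ccl6 (SE 0.10) and 0.13 for Ccl9 (SE 0.09). None of the 5 was called (edgeR adjusted p = 0.367 for Ccl6 and higher for the rest), 2 of 5 had an unadjusted p under 0.05, and 0 of 415 genes were called (0%) with 31 at an unadjusted p under 0.05. All 7 chemokines overlapped between the treatments in run 2, while 8.92% of tested genes were higher and 6.02% lower without overlap. Ccl4 and Ccl7 are not among the tested genes. Each of the 3 rRELMa samples was above the PBS mean for Ccl2, Ccl3, Ccl5 and Ccl6, and 2 of 3 for Ccl9. For Ccl2, 2 of the 3 PBS samples were at or below the limit, and its log2 fold change ranged from 0.35 to 1.05 under other processing.

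Within run 1 the log2 fold changes were -0.13 for Ccl2 (SE 0.20), 0.60 for Ccl3 (SE 0.21), -0.05 for Ccl5 (SE 0.06), 0.15 for Ccl6 (SE 0.10) and 0.04 for Ccl9 (SE 0.09). Again 0 of the 5 were called (edgeR adjusted p = 0.574 for Ccl3 and higher for the rest) beside 1 of 415 genes (0.241%). At an unadjusted p under 0.05 there were 1 of the 5 and 25 of the 415. Without overlap, Ccl3 and Ccl6 were higher with rRELMa (7.71% of tested genes) and Ccl7 was lower (4.82% of tested genes). Ccl7 is not itself among the tested genes, so this share is no background for a probe near the negative controls. The scaled counts of Ccl7 in run 1 were 16.2, 18.8 and 12.4 with rRELMa, against 23.2, 22.4 and 32.5 with PBS, all from raw counts at or below the limit. With the mean negative control of each sample subtracted, the run 1 log2 fold change of Ccl3 was 1.19 (edgeR adjusted p = 0.0716). That was the largest value under other processing, where the smallest was 0.43. Ccl3 was at or below the limit in 2 of the 3 run 1 PBS samples, so its size after subtraction is uncertain.

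The treatment effect did not differ between the runs past the threshold for any of the 5 chemokines. Ccl2 had the largest difference, 0.65 (SE 0.33, 95% interval -0.03 to 1.32, edgeR adjusted p = 0.722), from 0.51 in run 2 and -0.13 in run 1. The run 2 counts of Ccl2 were near the negative controls. For Ccl3 the difference was -0.32 (SE 0.24), for Ccl5 0.15, for Ccl6 0.15 and for Ccl9 0.09. By edgeR 0 of 415 genes were called for this difference (0%), with 28 genes and 0 of the 5 chemokines at an unadjusted p under 0.05.

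**Figure D2:**
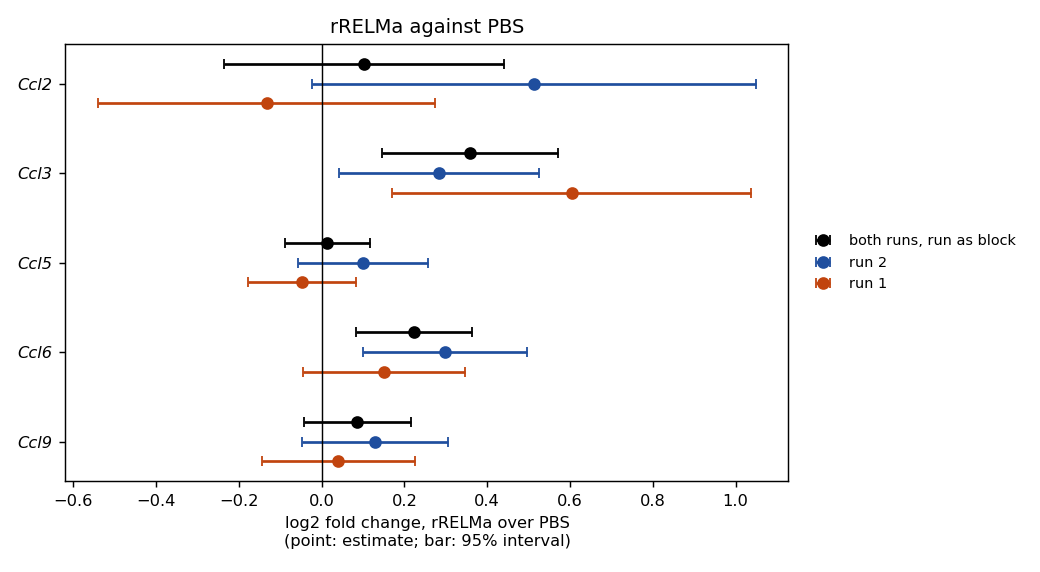
Log2 fold change of rRELMa against PBS for the 5 tested chemokines, with both runs and the run as a block, in run 2 and in run 1 (points, with 95% intervals before adjustment). Ccl3 at 0.36 and Ccl6 at 0.22 with both runs have intervals above 0 but did not pass the adjusted threshold.

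Between the runs all 5 tested chemokines differed in both treatments. Ccl5, Ccl2, Ccl6 and Ccl9 were lower in run 2 than in run 1, and Ccl3 was higher in run 2. In rRELMa cells all 5 were called by edgeR, 1 higher and 4 lower, beside 263 of 415 genes (63.4%), with 29.9% higher and 33.5% lower. In PBS cells the same 5 were called in the same directions, beside 273 of 415 genes (65.8%), with 29.9% higher and 35.9% lower. With such a background a call between the runs is common to most tested genes, and the sizes carry the description. TMM takes most genes as unchanged, while most were called here. The directions, sizes and shares between the runs therefore depend on that scaling.

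Ccl5 had the largest difference among the 5. Its scaled counts with rRELMa were 298, 336 and 304 in run 2, against 1657, 1489 and 1688 in run 1. With PBS they were 282, 319 and 265 in run 2, against 1694, 1673 and 1615 in run 1. The lowest run 1 sample was several times the highest run 2 sample, and in run 2 Ccl5 was 5.15-fold lower with rRELMa (log2 -2.36, SE 0.07, edgeR adjusted p = 3.48e-22) and 5.70-fold lower with PBS (log2 -2.51, SE 0.07, edgeR adjusted p = 9.95e-23). Among all 415 genes its p ranked 3 in both treatments.

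Ccl2 had scaled counts with rRELMa of 22.9, 21.8 and 16.4 in run 2, against 48.7, 79.7 and 82.7 in run 1. With PBS they were 14.5, 17.5 and 8.92 in run 2, against 83.8, 70.1 and 79.1 in run 1. The runs did not overlap, and Ccl2 was 3.43-fold lower in run 2 with rRELMa (log2 -1.78, SE 0.22, edgeR adjusted p = 3.71e-08) and 5.36-fold lower with PBS (log2 -2.42, SE 0.23, edgeR adjusted p = 1.75e-10). Since run 2 counts of Ccl2 were near the negative controls, these folds moved when the controls were subtracted, to log2 -2.13 with rRELMa and -3.34 with PBS.

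Ccl3 differed in the other direction, with no overlap between the scaled counts of the runs given above. It was 1.82-fold higher in run 2 than in run 1 with rRELMa (log2 0.86, SE 0.15, edgeR adjusted p = 1.61e-05) and 2.27-fold higher with PBS (log2 1.18, SE 0.17, edgeR adjusted p = 6.54e-07). Here the run 1 counts were the ones near the negative controls, and after subtraction the log2 differences were 1.14 with rRELMa and 2.03 with PBS.

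Ccl6, which macrophages make in type 2 inflammation, averaged 190 ± 18.9 scaled counts with rRELMa in run 2 and 420.0 ± 20.2 in run 1 (SD, n = 3 each). With PBS it averaged 153 ± 19.0 in run 2 and 379 ± 14.4 in run 1. The log2 difference of Ccl6 was -1.15 with rRELMa (SE 0.09, edgeR adjusted p = 7.91e-12) and -1.30 with PBS (SE 0.10, edgeR adjusted p = 1.44e-12). Ccl9, which is next to it in the gene order, averaged 939.8 ± 105 with rRELMa in run 2 and 1552 ± 164 in run 1, and 863 ± 99.5 with PBS in run 2 and 1506 ± 186 in run 1. The log2 difference of Ccl9 was -0.72 with rRELMa (SE 0.09, edgeR adjusted p = 2.86e-08) and -0.81 with PBS (SE 0.09, edgeR adjusted p = 3.71e-09).

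Ranked by scaled count, the run 1 groups were above the run 2 groups for Ccl2, Ccl5, Ccl6 and Ccl9, and below them for Ccl3. Neighbours in this order that share a run did not differ past the threshold for any of the 5. The scaled counts of all 7 chemokines did not overlap between the runs, with Ccl3 higher and the other 6 lower in run 2. In rRELMa cells 33% of tested genes were higher and 34.9% lower in run 2 without overlap, and in PBS cells 31.1% and 35.9%. These shares leave out Ccl4 and Ccl7, which were not tested.

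Ccl4 and Ccl7 need the negative controls beside them, since the scaled mean of those controls was itself lower in run 2, by -1.44 on the log2 scale with rRELMa and -1.47 with PBS. Without the filter on low counts, over 734 genes, the log2 difference of Ccl4 was -0.69 with rRELMa (edgeR adjusted p = 0.0471) and -0.82 with PBS (0.0139). That of Ccl7 was -0.94 with rRELMa (edgeR adjusted p = 0.0272) and -1.71 with PBS (1.80e-05). These fits were scaled over more genes than the control shift, so the sizes cannot be set against each other closely. On the scale of the control shift Ccl4 averaged 12.5 in run 2 and 25.5 in run 1 with rRELMa, and 12.7 and 30.5 with PBS. Ccl7 averaged 6.32 in run 2 and 15.8 in run 1 with rRELMa, and 6.39 and 26.0 with PBS. The mean negative control averaged 7.91 in run 2 and 21.7 in run 1 over both treatments.

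**Figure D3:**
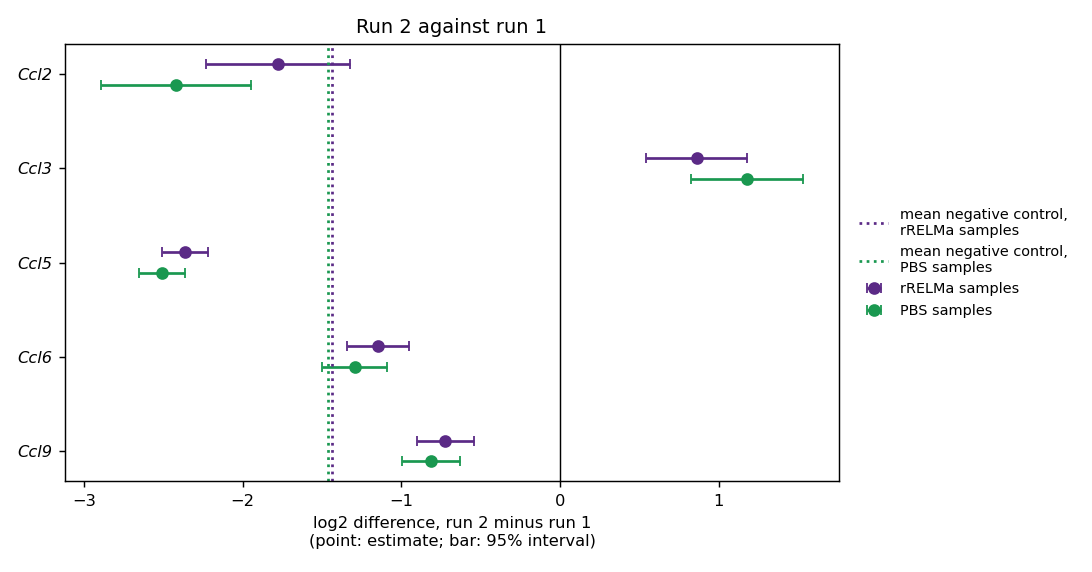
Log2 difference of run 2 against run 1 for the 5 tested chemokines with rRELMa and with PBS (points, with 95% intervals before adjustment), with lines at the shift of the mean negative control, -1.44 with rRELMa and -1.47 with PBS. Ccl3 lies above 0 and Ccl5 and Ccl2 lie lowest.

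The direction between the runs depended on the scaling for part of the chemokines. Endogenous counts per positive control count were 7.54 ± 0.943 in run 2 and 1.67 ± 0.171 in run 1 (SD, n = 6 each), so scaling to the positive controls, which are synthetic targets added to each reaction, moved the median of all 415 genes to 1.91 with rRELMa and 1.59 with PBS. On that scale Ccl6 was higher in run 2, by 0.81 with rRELMa and 0.32 with PBS, and Ccl9 by 1.23 and 0.80. Ccl2 was at 0.17 with rRELMa, which was not called (edgeR adjusted p = 0.4995), and at -0.80 with PBS. Ccl5 stayed lower in run 2, at -0.40 with rRELMa and -0.89 with PBS, and Ccl3 stayed higher, at 2.82 and 2.80. Scaling to the reference genes or to totals moved the median of all genes to between -0.43 and -0.33 and turned none of the 5 chemokines. Relative to the median of all genes Ccl3 was above and the other 4 were below under each of these scalings. A scaling moves all genes of a sample together, so this position was nearly fixed in advance and is no separate support.

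**Figure D4:**
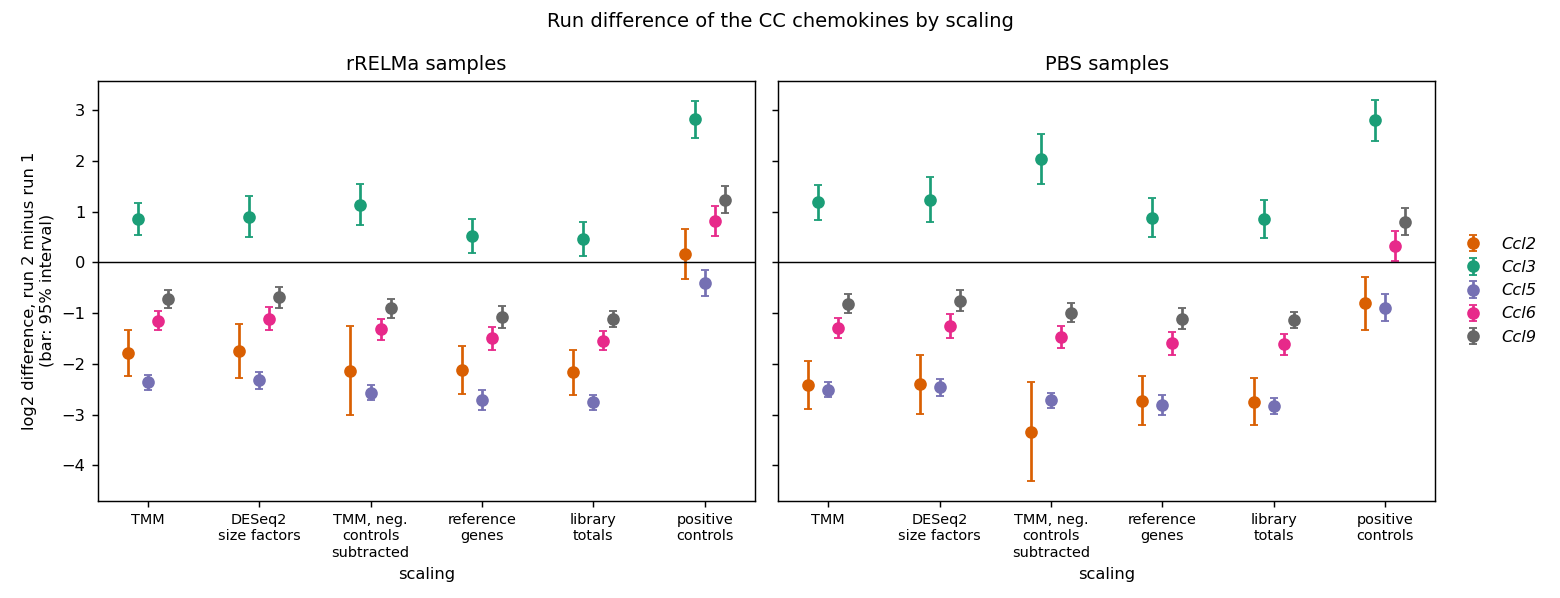
Log2 difference of run 2 against run 1 under each scaling for the 5 tested chemokines, with rRELMa and with PBS. Ccl6 and Ccl9 change sign with the positive controls, and so does Ccl2 with rRELMa, while Ccl5 stays below 0 and Ccl3 above 0.

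Ratios of raw counts within a sample need no scaling. They were added after the data were seen, are given with no test, and all have the Ccl3 count below the line. The scaled counts of Ccl3 were higher in run 2 without overlap, and those of Ccl2, Ccl5, Ccl6 and Ccl9 lower. Ratios that are lower in run 2 without overlap follow from this and are no separate support. Ccl5 had 2.65 to 3.03 counts per Ccl3 count in run 2 rRELMa and 2.87 to 3.41 in run 2 PBS, against 22.9 to 30.2 in run 1 rRELMa and 38.1 to 44.8 in run 1 PBS. Ccl2 had 0.163 to 0.207 counts per Ccl3 count in run 2 rRELMa and 0.0964 to 0.175 in run 2 PBS, against 0.675 to 1.48 in run 1 rRELMa and 1.87 to 1.96 in run 1 PBS. The runs did not overlap for either ratio.

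Ccl6 had 1.35 to 1.88 counts per Ccl3 count in run 2 rRELMa and 1.51 to 1.75 in run 2 PBS, against 5.53 to 7.58 in run 1 rRELMa and 8.5 to 10.5 in run 1 PBS. Ccl9 had 6.46 to 9.86 in run 2 rRELMa and 8.91 to 10.1 in run 2 PBS, against 18.9 to 29.7 in run 1 rRELMa and 31.6 to 45.9 in run 1 PBS. In run 1 all 4 ratios were lower with rRELMa than with PBS without overlap, and in run 2 all 4 overlapped. These 4 comparisons share the Ccl3 counts, which were at or below the limit in 2 of the 3 run 1 PBS samples. The scaled counts of Ccl3 in run 1 were themselves higher with rRELMa without overlap, so the 4 ratios are no separate support. How many other genes per Ccl3 count are lower without overlap was not measured.

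With the mean negative control of each sample subtracted, the run 1 ratios of Ccl5, Ccl6 and Ccl9 were larger. Ccl5 per Ccl3 was then 2.77 to 3.19 in run 2 rRELMa and 3.06 to 3.70 in run 2 PBS, against 32.5 to 46.1 in run 1 rRELMa and 69.0 to 110.6 in run 1 PBS. Ccl9 per Ccl3 was 6.85 to 10.6 in run 2 rRELMa and 9.51 to 11.0 in run 2 PBS, against 26.7 to 45.3 in run 1 rRELMa and 62.1 to 113 in run 1 PBS. Ccl6 per Ccl3 was 1.38 to 1.95 in run 2 rRELMa and 1.56 to 1.84 in run 2 PBS, against 7.49 to 11.2 in run 1 rRELMa and 15.6 to 24.8 in run 1 PBS.

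The runs still did not overlap, and the size of the run 1 ratios is uncertain. Ccl2 per Ccl3 after subtraction was 0.0949 to 0.154 in run 2 rRELMa and 0.0133 to 0.108 in run 2 PBS, where Ccl2 itself is near the controls, against 0.534 to 1.74 in run 1 rRELMa and 2.59 to 3.52 in run 1 PBS.

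**Figure D5:**
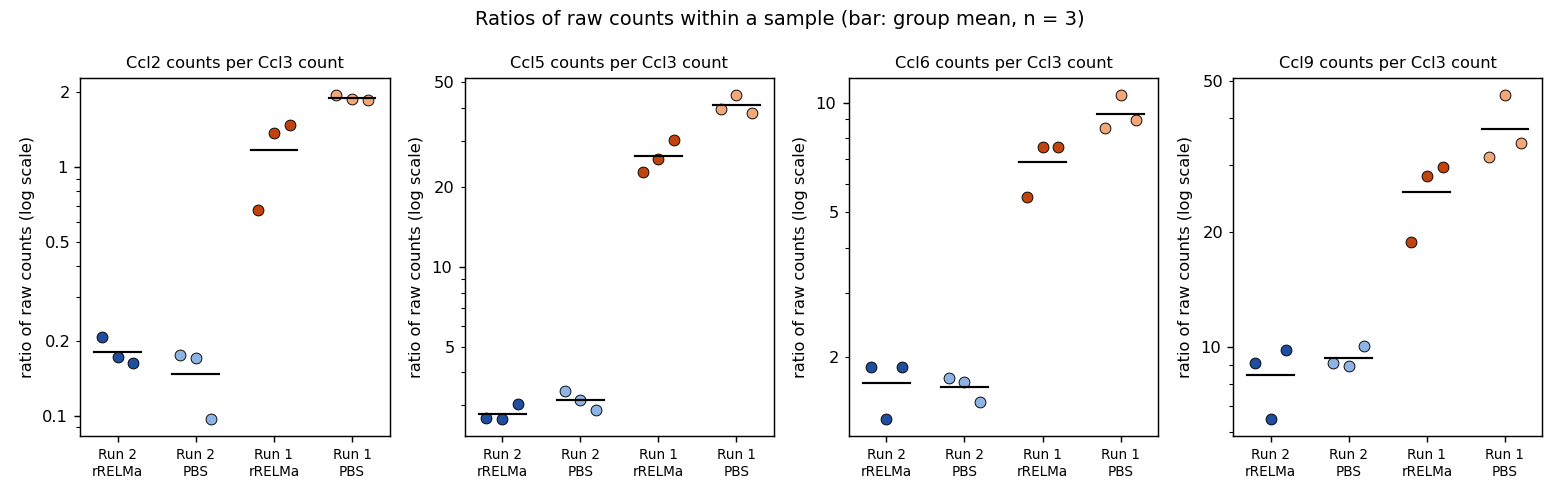
Raw counts of Ccl2, Ccl5, Ccl6 and Ccl9 per Ccl3 count in each sample (log axis, bars for the group mean, n = 3), in run 2 rRELMa, run 2 PBS, run 1 rRELMa and run 1 PBS. All 4 ratios are lower in run 2 than in run 1 in both treatments, with no overlap. This follows from the scaled counts, higher in run 2 for Ccl3 and lower for the rest.

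Markers of other cells also differed between the runs, and their part in the chemokine differences was not tested. No marker was listed at 0. The NK cell list, of cells known to make Ccl5, had 3 of 7 genes on the panel and none passing the minimum, with summed raw counts of 22 to 30 in run 2 rRELMa, 19 to 30 in run 2 PBS, 41 to 68 in run 1 rRELMa and 49 to 84 in run 1 PBS. Its granzyme gene Gzma was above the limit in 0 of 6 run 2 samples, in 3 of 3 run 1 rRELMa samples and in 1 of 3 run 1 PBS samples, at up to 40 counts. The other NK genes on the panel stayed near the negative controls, Nkg7 above the limit in 0 of 12 samples and Klrk1 in 1 of 12. The single T cell marker on the panel, Cd247, had 12 to 21 raw counts in run 2 and 12 to 30 in run 1. It was above the limit in 2 of 3 run 1 rRELMa samples, in 1 of 3 run 1 PBS samples and in 0 of 3 samples of each run 2 group.

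The alveolar macrophage list, 8 of 12 on the panel and all 8 passing, had summed scaled counts of 109091 to 114486 in run 2 rRELMa, 103852 to 107105 in run 2 PBS, 72392 to 79425 in run 1 rRELMa and 71601 to 80546 in run 1 PBS, most of it Chil3. The monocyte and interstitial macrophage list, 11 of 12 on the panel and 9 passing, had 2036 to 2282 in run 2 rRELMa, 2126 to 2339 in run 2 PBS, 2620 to 2682 in run 1 rRELMa and 2611 to 2879 in run 1 PBS. The dendritic cell list, 9 of 12 on the panel and 7 passing, had 858 to 1032 in run 2 rRELMa, 745 to 976 in run 2 PBS, 643 to 740 in run 1 rRELMa and 542 to 740 in run 1 PBS. The neutrophil list, 8 of 9 on the panel and 1 passing (S100a8), had summed scaled counts of 224 to 281 in run 2 rRELMa, 239 to 259 in run 2 PBS, 335 to 451 in run 1 rRELMa and 369 to 455 in run 1 PBS. The epithelial, endothelial or stromal list, 4 of 8 on the panel and 2 passing, had 991 to 1068 in run 2 rRELMa, 986 to 1106 in run 2 PBS, 2300 to 2736 in run 1 rRELMa and 2397 to 2485 in run 1 PBS, most of it Cav1. On the TMM scale the alveolar macrophage and dendritic cell sums were thus higher in run 2 without overlap. The monocyte, neutrophil and stromal sums were lower without overlap. Genes within a list differed in direction. In both treatments the alveolar list had 5 genes called higher and 1 lower, and the monocyte list 1 and 6. The dendritic list had 3 and 1 with rRELMa and 4 and 1 with PBS, and the stromal list 1 and 1, and 0 and 1. Over all tested genes 29.9% were higher in both treatments, and 33.5% lower with rRELMa and 35.9% with PBS. Beside S100a8 the neutrophil sum held only probes below the minimum. No gene of the eosinophil, B cell or mast cell and basophil lists, with 4, 1 and 5 genes on the panel, passed the minimum.

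Ccr1, a receptor of Ccl3, Ccl5, Ccl6 and Ccl9, passed the minimum. Ccr2, the receptor of Ccl2 and Ccl7, did not, at a mean of 15.7 raw counts and at or below the limit in 11 of 12 samples. Of 10 CC chemokine receptors on the panel 4 were tested, and rRELMa against PBS called 0 of the 4 by edgeR. The log2 fold change with the run as a block was 0.22 for Ccr7, which guides dendritic cells to lymph nodes (edgeR adjusted p = 0.634), -0.03 for Ccr1 and -0.06 for the non-signalling receptor Ccrl2.

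Between the runs 2 receptors were higher and 2 lower in run 2, in both treatments, against 3 higher and 0 lower with the positive controls, and 1 higher and 2 lower with rRELMa under the reference genes. Over all tested genes 29.9% were higher in both treatments, and 33.5% lower with rRELMa and 35.9% with PBS. Ccr1 was at -0.60 with rRELMa (edgeR adjusted p = 5.77e-08) and at -0.80 with PBS (1.58e-10), and at 1.35 and 0.82 with the positive controls. Ccr7 was higher at 1.02 with rRELMa and 1.14 with PBS, and Ccrl2 at 0.67 and 0.73. The Ccr1 values thus had the sign of Ccl5 and not of Ccl3 on the TMM scale.

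Of the 14 other CC chemokines on the panel 4 were tested, and rRELMa against PBS called 0 of them, with a median log2 fold change of 0.04. Ccl8, a relative of Ccl2, was at -0.23 (edgeR adjusted p = 0.634), the eosinophil attractant Ccl24 at 0.13 (0.703), and the Ccr4 ligands Ccl22 and Ccl17 at 0.09 and -0.02. Between the runs 1 was higher and 2 lower in run 2 in both treatments, beside the same shares of all genes. This became 0 higher and 3 lower with the reference genes, and with the positive controls 4 higher with rRELMa and 3 higher with PBS. Ccl24 was at -1.55 with rRELMa and -1.45 with PBS, Ccl8 at -1.48 and -1.26, and Ccl22 at 0.49 and 0.43 (edgeR adjusted p = 0.00926 and 0.0198).

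The genes most like each chemokine were sought by Pearson's r over the 12 samples, using deviations of log2 scaled counts from the mean of the run, as a description in which all genes of a sample share its depth and scaling. For Ccl3 they were Tmem173 at 0.82, Znrf2 at 0.82 and Ikzf1 at 0.76. For Ccl5 they were the class II MHC gene H2-Aa at 0.84, Thbd at 0.80 and Trex1 at 0.72. For Ccl6 they were Golim4 at 0.75 and the peptide transporter genes Tap1 at 0.73 and Tap2 at 0.72. For Ccl9 they were the complement gene C1qa at 0.82, Chil3 at 0.75 and Cd151 at 0.72, and for Ccl2 they were Tlr13 at 0.74, Dusp1 at 0.71 and H2-Ab1 at 0.70. No gene was named for more than 1 of the 5 chemokines. These genes were picked as having the highest r among all tested genes. How high r reaches in unrelated genes by such a choice was not measured.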

How the data were processed

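Counts of 768 probes in 12 samples were used as deposited, 754 of endogenous genes, 6 of positive and 8 of negative controls. The deposited values were taken as raw counts because they were whole numbers with unequal totals and uneven control probes, with no value at 0 and a lowest value of 1. The sources used here do not give the counting software or any floor. Groups came from the titles. The members and gene lists were chosen with earlier results of these data known.

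Control probes, 20 reference genes and 319 genes with a mean count under 20 were left out, and 415 were tested with edgeR 4.0.16 (glmQLFit and glmQLFTest, two-sided, R 4.3.3) on TMM-scaled counts. One model had treatment and run over 12 samples, another 1 coefficient per group. P-values were adjusted by Benjamini-Hochberg over the 415 genes. The test was first run on simulated data. Scaled counts are relative to the mean library, and errors are SD over 3 samples.

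Named genes were the 7 chemokines in every sample, up to 4 genes per list with the smallest p, and the 3 genes most like each tested chemokine. Only the genes most like each chemokine within a run are printed, and some listed genes are not reported here. Promoter windows were searched with Biopython 1.88. All 12 replicate pairs within a group differed by more than counting noise, with a chi-square of 1.55 to 3.25 per degree of freedom. Deviations of same-numbered samples correlated at -0.0785 to -0.0275 between treatments, so the numbers were not taken as pairs. Alternatives were other scalings (reference genes, totals, positive controls), DESeq2 1.42.0, limma 3.58.1 with a pseudocount of 1, subtracted negative controls, other filters, a replicate block, single runs, no run term and each sample left out.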

Additional observations from a re-analysis of the deposited data

How the results depend on the processing

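None of the 5 tested chemokines was called for rRELMa against PBS under any alternative run, in both runs together or in either. With both runs Ccl3 ranged from 0.30 to 0.47 and Ccl6 from 0.18 to 0.26 on the log2 scale, with adjusted p-values from 0.0759 and 0.0959 upwards. Of 645 chemokine values under alternatives 619 kept direction and side of the threshold and 26 changed sign. With both runs Ccl5 turned to -0.0032 with totals, -0.010 with DESeq2, -0.0020 with negative controls subtracted and -0.020 without a run term, where Ccl2 was -0.016. With the positive controls the run 1 effect of Ccl6 was -0.026 and of Ccl9 -0.14, and the Ccl3 difference of effects 0.016. On that scale run 2 against run 1 was 0.17 for Ccl2, 0.81 for Ccl6 and 1.23 for Ccl9 with rRELMa, and 0.32 for Ccl6 and 0.80 for Ccl9 with PBS. Leaving out single samples took Ccl5 with both runs from -0.029 to 0.032, the run 1 effects of Ccl2 from -0.30 to 0.049 and of Ccl9 from -0.056 to 0.12, and the Ccl9 difference of effects from -0.011 to 0.18.

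Over all genes, rRELMa against PBS called 2 genes (Arg1 and Fcnb) without the filter and 0 without a run term, against 1 (Arg1). In run 1 it called 0 with reference genes, totals, DESeq2, subtracted controls, no filter or limma, and 0 to 1 with a sample left out. In run 2 it called 1 (Chil4) with the replicate block and with run 2 alone, against 0. The replicate block called no chemokine and left Ccl3 at 0.36 with both runs (adjusted p = 0.251). Run 2 against run 1 called 420 genes with rRELMa and 414 with PBS without the filter, and 395 with rRELMa with the positive controls. With rRELMa the split was 124 higher and 139 lower, against 58 and 228 with reference genes, 58 and 245 with totals and 380 and 15 with the positive controls. With PBS it was 124 and 149, against 63 and 206, 64 and 217, and 366 and 20. What set the scaling differences was not tested. Groups of 3 samples and counts near the negative controls limit Ccl2 and Ccl3, and Ccl4 and Ccl7 were not measurable above background at this depth.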

Other observations

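Chemokines of the CXC, CX3C and XC families were lower in run 2 on the TMM scale, 6 of 6 tested with rRELMa and 5 of 6 with PBS, against 4 higher and 2 lower with the positive controls in both treatments. Over all 415 tested genes 33.5% were lower with rRELMa and 35.9% with PBS. The counts of the 6 take in Cxcl9 and Cxcl10, both induced by interferon, which passed the minimum only through run 1. Cxcl9 had 7 to 9 raw counts in run 2 rRELMa and 5 to 13 in run 2 PBS, against 47 to 74 in run 1 rRELMa and 63 to 98 in run 1 PBS. Cxcl10 had 2 to 8 raw counts in run 2 rRELMa and 9 to 14 in run 2 PBS, against 36 to 55 in run 1 rRELMa and 29 to 54 in run 1 PBS. Both were above the limit of the negative controls in 0 of 6 run 2 samples and 6 of 6 run 1 samples, so no size is given for the difference. By edgeR rRELMa against PBS called 0 of the 6.

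Of 9 interferon signalling genes, run 2 against run 1 gave 1 higher and 4 lower with rRELMa and 1 higher and 6 lower with PBS, against 7 higher and 1 lower with the positive controls in both. The lower share was 33.5% over all tested genes with rRELMa and 35.9% with PBS, and 63.4% and 65.8% were called in either direction. The transcription factor gene Irf7 was at -3.97 with rRELMa and -3.89 with PBS, and stayed lower with the positive controls at -2.01 and -2.27. Of 15 tested NF-kB and Toll-like receptor genes 1 was higher and 5 lower in both treatments, against 15 and 14 higher and 0 lower with the positive controls. These 5 of 15 are near the lower share over all tested genes, and are not a result about these genes. Among them Cd14, the lipopolysaccharide co-receptor, was at -1.61 with rRELMa and -1.77 with PBS. rRELMa against PBS called 0 of the 9 and 0 of the 15 by edgeR.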
